A study of Sus scrofa with 2 samples.

Results

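Mast cells of pig skin were sought as the cells that carried KIT, MS4A2 and HDC transcripts. Counting these 3 genes together, a cell was chosen when it held at least 5 unique molecular identifiers (UMIs, each standing for 1 captured transcript), no CD3E UMI, fewer than 10 UMIs of C1QA and C1QB, less than 1% of its UMIs on COL1A1, COL1A2 and COL3A1, and less than 0.3% on KRT5. All chosen cells had at most 4500 genes, 30000 UMIs and 10% of UMIs on the 13 mitochondrial protein genes. The rule found 341 cells among 6998 cells within these limits, of 9239 barcodes in all. The chosen cells, all of which carried at least 1 of the 3 rule genes, were not of 1 kind. As described below, 150 of them, those with at least 2 UMIs of at least 2 of the 3 genes, were mast cell-like, whereas 131 cells carried KIT alone, most of them with endothelial genes, and 60 cells carried MS4A2 alone, most of them with high levels of antigen presentation genes.

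Skin of pig (Sus scrofa) was dissociated into single cells and profiled by 10x Genomics 3′ single-cell RNA-seq, with 1 library labelled fresh (untreated) and 1 library labelled frozen. The frozen cells are called cryopreserved here, and the stated freezing medium held 90% FBS and 10% DMSO. The text that the labels attach to both libraries describes freezing, thawing and removal of dead cells before library preparation, so the handling of the fresh cells rests on its own label. The study's methods name full-thickness dorsal skin of healthy young male farm pigs, while breed, exact age and the number of animals behind each library are not given in the sources used here. The fresh library held 53271738 UMIs in 4379 barcodes and the cryopreserved library 42217632 UMIs in 4860 barcodes. The libraries had 6 barcode sequences in common, and 0 of these belonged to chosen cells. With 1 library per condition no spread between samples could be measured, no test was made. The 95% intervals below cover counting error only. Those of medians, and the ranges of ratios of medians, cover the spread between cells within a library, so none of these covers variation between samples.

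Mast cells are tissue-resident cells of the haematopoietic lineage that sit in the dermis around vessels and nerves. They depend on KIT, the receptor for stem cell factor, and carry the high-affinity IgE receptor, of which FCER1A, MS4A2 and FCER1G encode the alpha, beta and gamma chains. When antigen crosslinks bound IgE, they release granules that hold histamine, made by the histidine decarboxylase HDC, together with proteases held on the proteoglycan serglycin (SRGN), and they make prostaglandins, leukotrienes and cytokines. KIT is also used by melanocytes and by some endothelial cells, and chains of the IgE receptor are also found in dendritic cells.

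The 5 markers were all named in the files. On the Sscrofa11.1 assembly, RefSeq places KIT at chr8:41402334-41492306, MS4A2 at chr2:11400415-11420314, HDC at chr1:121505677-121525416, HPGDS at chr8:125375906-125406066 and GATA2 at chr13:71981139-71997626. HPGDS makes prostaglandin D2 and GATA2 is a transcription factor of the mast cell and other haematopoietic lineages. KIT, MS4A2 and HDC chose the cells, so their levels are given as a description. HPGDS and GATA2 did not enter the rule.

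KIT, MS4A2 and HDC were not spread evenly over the chosen cells. In the fresh library 50 cells had at least 2 UMIs of each of the 3 genes, 14 of KIT and MS4A2 and 2 of MS4A2 and HDC. In the cryopreserved library 63 cells had all 3 genes, 12 had KIT and MS4A2, 7 had KIT and HDC, and 2 had MS4A2 and HDC. KIT was the only gene with 2 or more UMIs in 76 fresh and 55 cryopreserved cells, and MS4A2 was the only one in 29 fresh and 31 cryopreserved cells. No cell was chosen by HDC alone. This division was made after the values had been seen.

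**Figure D1:**
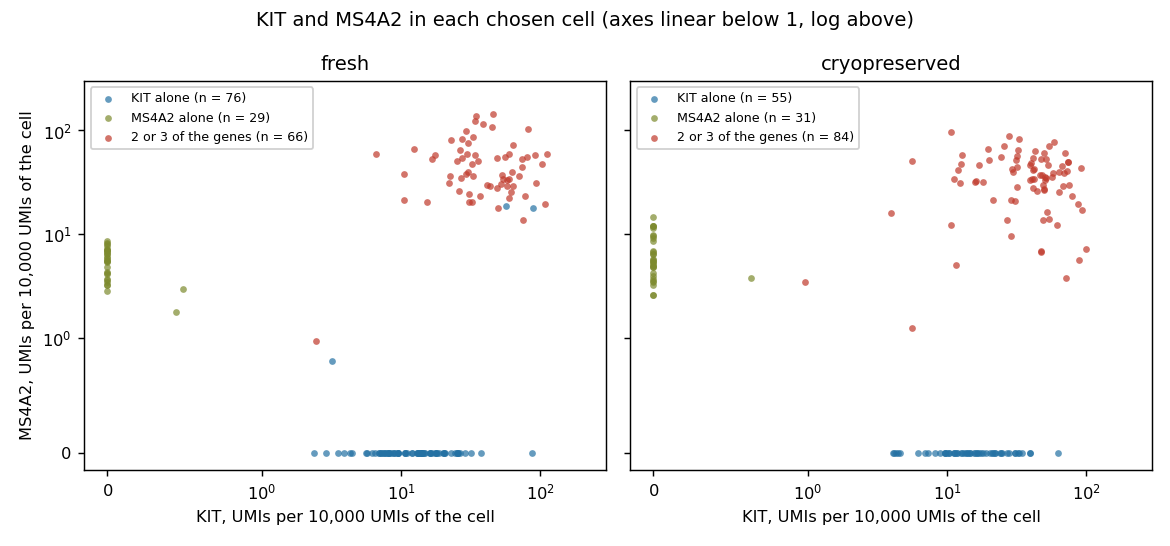
KIT (horizontal axis) and MS4A2 (vertical axis) in UMIs per 10000 UMIs of the cell, 1 point per chosen cell, fresh on the left and cryopreserved on the right, with axes linear below 1 and logarithmic above. Cells with at least 2 UMIs of 2 or 3 of the genes (66 fresh, 84 cryopreserved) are drawn apart from the cells with KIT alone (76 and 55) and with MS4A2 alone (29 and 31), a division that the plotted genes themselves define.

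In the cells with 2 or 3 of the genes, KIT was found in every cell. Its median was 37.9 UMIs per 10000 UMIs of the cell in fresh cells, with a range of 2.43 to 113. In cryopreserved cells the median was 42.2, with a range of 0.98 to 101. MS4A2 was likewise found in every cell, with a median of 39.4 and a range of 0.972 to 144 in fresh cells, and a median of 35.8 and a range of 1.25 to 96.6 in cryopreserved cells. The ranges of the 2 libraries overlapped for both genes, and MS4A2 values above 96.6 occurred in fresh cells alone. Where KIT was the only gene, its median was 13.1 in fresh and 14.5 in cryopreserved cells, and where MS4A2 was the only gene, its median was 5.52 and 5.48. These values follow cells of different depth, and the median KIT count was 8 UMIs in fresh cells with KIT alone against 11 UMIs in fresh cells with 2 or 3 of the genes.

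Near the threshold the chosen cells were mostly of the kinds with 1 gene. Within the gene, UMI and mitochondrial limits, 203 fresh and 193 cryopreserved cells had 5 or more UMIs of the 3 genes, and the CD3E, C1Q, collagen and KRT5 criteria removed 32 and 23 of them. At a sum of 5 UMIs there were 17 fresh and 21 cryopreserved cells, 0 and 0 of them with at least 2 UMIs of 2 genes, and at a sum of 6 UMIs 16 and 17 cells, of which 1 and 1 had 2 genes. Just outside the threshold, at a sum of 4 UMIs, lay 19 fresh and 26 cryopreserved cells, of which 0 and 1 had 2 genes.

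The transcription factor GATA2, which was not used to choose the cells, stood at different levels in the 3 kinds of cell. Summed over the cells with 2 or 3 of the genes, GATA2 stood at 763 CPM (UMIs of a gene per 1000000 UMIs of the same cells) in fresh and 1349 CPM in cryopreserved cells. In the cells with KIT alone GATA2 stood at 74.1 and 94.5 CPM, and in the cells with MS4A2 alone at 0 and 0. GATA1, its relative in the mast cell and red cell lineages, stood at 171 and 183 CPM in the cells with 2 or 3 genes and at 0 in both libraries in the other kinds of chosen cell. HPGDS stood at 273 and 282 CPM in the cells with 2 or 3 genes, at 0 and 0 with KIT alone, and at 6.55 and 0 with MS4A2 alone. Outside the chosen cells, HPGDS stood at 58.6 and 66.4 CPM in T cells and at 116 CPM in fresh Langerhans cells. A UMI of GATA2, HPGDS or GATA1 was present in 63 of 66 fresh and 76 of 84 cryopreserved cells with 2 or 3 genes, in 29 of 76 and 21 of 55 cells with KIT alone, where it was GATA2 in every case, and in 3 of 29 and 0 of 31 cells with MS4A2 alone. The cells with 2 or 3 genes are called mast cell-like below. Of the 5 markers KIT, MS4A2 and HDC defined these cells, so that HPGDS and GATA2 alone were free to be absent, and both were detected in both libraries.

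Most cells with KIT alone carried genes of endothelium. PECAM1, an adhesion molecule of endothelial junctions, stood at 1042 CPM in fresh and 750 CPM in cryopreserved cells, against 25.4 and 49.1 in mast cell-like cells. VWF, the von Willebrand factor of vessel walls, stood at 528 and 470, against 3.64 and 0. The cadherin CDH5 stood at 337 and 247, against 3.64 and 0. Together, PECAM1 and VWF reached 5 UMIs in 63 of 76 fresh and 37 of 55 cryopreserved cells with KIT alone, and in 0 of 66 and 1 of 84 mast cell-like cells. At least 1 UMI of PECAM1 or VWF was present in 70 of 76 fresh and 46 of 55 cryopreserved cells with KIT alone, so a few had none. SLA-DRA took at least 0.2% of the UMIs in 6 and 7 of the cells with KIT alone, and ENSSSCG00000021222, an unnamed feature found in 65 of 66 and 82 of 84 mast cell-like cells, was present in 2 fresh cells with KIT alone. Over the 6 endothelial markers, the summed level was 1919 and 1495 CPM in the cells with KIT alone, with PECAM1 the most abundant, and 32.7 and 49.1 in mast cell-like cells. The melanocyte list was nearly empty. Of its 7 genes, 6 had no UMI in the cells with KIT alone in either library, and DCT had 2 fresh and 1 cryopreserved UMIs. IL6, an inflammatory cytokine that endothelium and fibroblasts can make, had 835 fresh UMIs and 66 cryopreserved UMIs in the cells with KIT alone, 24.0% of them in 1 cell, and it stood at 1214 and 183 CPM. In mast cell-like cells IL6 had 0 and 1 UMIs, and in the cells with MS4A2 alone 0 and 2 UMIs.

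Most cells with MS4A2 alone carried high levels of genes of antigen presentation. CD74, the invariant chain of MHC class II, stood at 22979 CPM in fresh and 30472 CPM in cryopreserved cells, against 1770 and 5082 in mast cell-like cells. SLA-DRA, the MHC class II alpha chain of pigs, stood at 10696 and 11501, against 680 and 1500. In mast cell-like cells 1 fresh and 3 cryopreserved cells carried most of this, and without them CD74 stood at 817 and 1053 CPM and SLA-DRA at 11.8 and 15.2 CPM. CCR7, a chemokine receptor of migrating dendritic cells, stood at 628 and 376, and FLT3, a growth factor receptor of dendritic cells, at 345 and 248. CCR7 was also present in T cells, at 339 and 418 CPM, and in macrophages, at 316 and 329 CPM. SLA-DRA took at least 0.2% of the UMIs in 26 of 29 fresh and 26 of 31 cryopreserved cells with MS4A2 alone. In Langerhans cells chosen by CD207, SLA-DRA stood at 10814 and 13592 CPM, CCR7 at 1227 and 1026 CPM, and MS4A2 at 72.0 and 114 CPM, so that SLA-DRA was alike and CCR7 higher in Langerhans cells. Their MS4A2 level was limited by the choice of comparison cells with fewer than 5 UMIs of the 3 rule genes. The 6 of 8 dendritic markers found in the files summed to 1207 and 861 CPM in the cells with MS4A2 alone, with no gene at 0 and CCR7 the most abundant, to 32.7 and 187 in mast cell-like cells, and to 2501 and 2091 in Langerhans cells. The 10 macrophage markers, of which the rule limited C1QA and C1QB, summed to 947 and 501 CPM in the cells with MS4A2 alone. CSF1R was the most abundant of them, at 439 and 294 CPM, and in macrophages the sum was 18189 and 22431 CPM. HDC and GATA2 were at 0 UMIs in the cells with MS4A2 alone in both libraries.

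**Figure D2:**
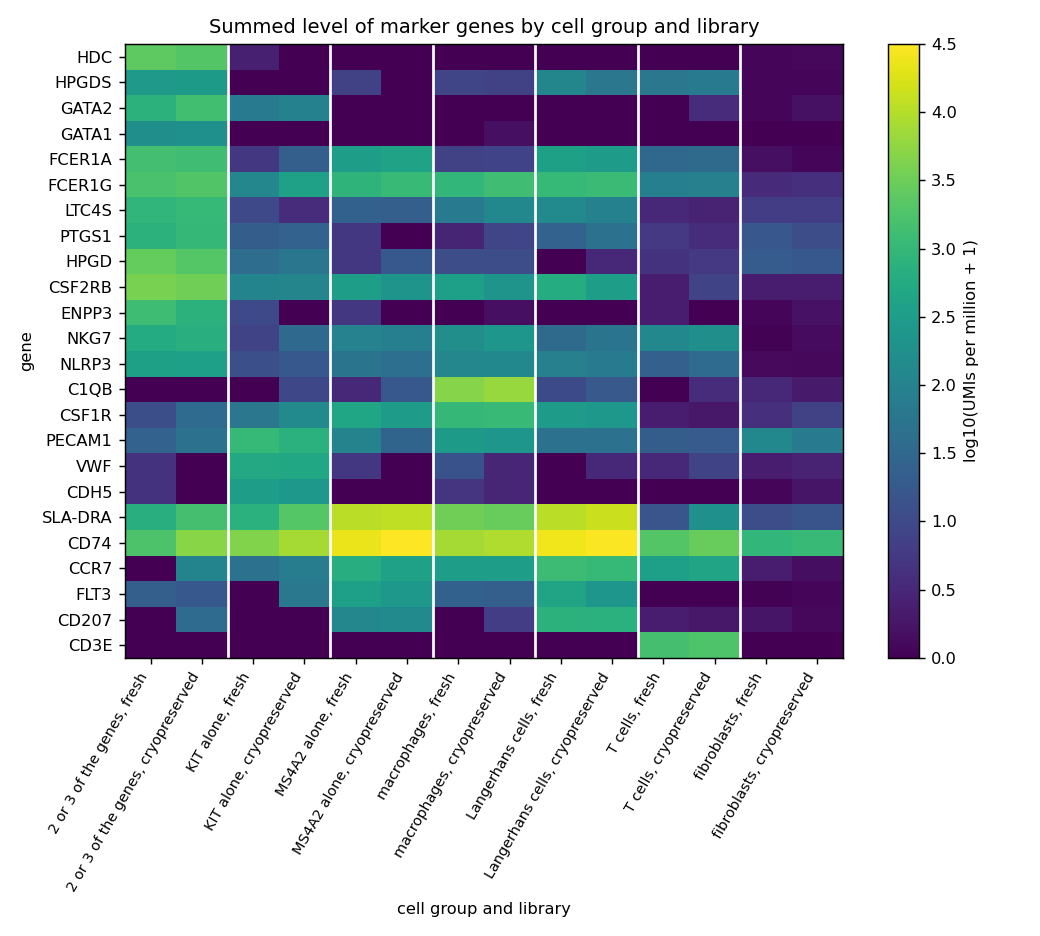
Summed level of marker genes (rows) in the 3 kinds of chosen cell and in macrophages, Langerhans cells, T cells and fibroblasts (columns, fresh then cryopreserved), coloured by log10 of CPM plus 1. HDC, HPGDS, GATA2 and GATA1 are bright together in the cells with 2 or 3 of the genes, PECAM1, VWF and CDH5 in the cells with KIT alone, and SLA-DRA and CD74 in the cells with MS4A2 alone.

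Taking each rule gene in turn out of the choice showed how far the other 2 found it. Among cells chosen by at least 5 UMIs of KIT and MS4A2, HDC had 2 or more UMIs in 51 of 169 fresh cells (30.2%) and 69 of 167 cryopreserved cells (41.3%). Among cells chosen by MS4A2 and HDC, KIT had 2 or more UMIs in 60 of 90 fresh cells (66.7%) and 79 of 112 cryopreserved cells (70.5%). Among cells chosen by KIT and HDC, MS4A2 had 2 or more UMIs in 61 of 135 (45.2%) and 71 of 133 (53.4%). A pair that held HDC still admitted cells in which the third gene was low, and cells with KIT or MS4A2 alone were among them.

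The share of chosen cells was lower in the cryopreserved library, and the mast cell-like cells accounted for little of that difference. The rule chose 171 of 2775 fresh cells (6.16%, exact binomial interval 5.30 to 7.12) and 170 of 4223 cryopreserved cells (4.03%, 3.45 to 4.66), a difference of -2.14 percentage points (-3.21 to -1.06). This difference depended on the limits on barcodes, and was -0.23 percentage points without the mitochondrial limit and 0.00267 without the gene, UMI and mitochondrial limits. Mast cell-like cells made up 66 of 2775 fresh cells (2.38%, 1.84 to 3.02) and 84 of 4223 cryopreserved cells (1.99%, 1.59 to 2.46), a difference of -0.39 percentage points (-1.10 to 0.32). The cells with KIT alone made up 2.74% of fresh and 1.30% of cryopreserved cells, a difference of -1.44 percentage points (-2.13 to -0.74). These intervals cover the counting of cells and not the spread between libraries, so they decide neither for nor against a difference between the conditions. Fewer cells of a type and a lower yield of such cells from dissociation cannot be told apart.

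The limit on mitochondrial UMIs removed mast cell-like cells unevenly. Before that limit, 70 fresh and 119 cryopreserved barcodes met all other criteria with at least 2 of the 3 genes. The limit removed 4 of the 70 fresh barcodes (5.71%, 1.58 to 13.99) and 35 of the 119 cryopreserved barcodes (29.4%, 21.4 to 38.5). Over all barcodes within the gene and UMI limits, the order was the opposite, with 1004 of 3779 fresh barcodes (26.6%) and 446 of 4669 cryopreserved barcodes (9.55%) above the limit. Without the mitochondrial limit the share of mast cell-like cells was 1.85% of fresh and 2.55% of cryopreserved cells, so that its direction turned, with a difference of 0.696 percentage points. The 35 removed cryopreserved barcodes had a median of 1026 UMIs and of 12.8% mitochondrial UMIs, and 30 of them held a UMI of GATA2, HPGDS or GATA1. KIT stood in them at 5214, MS4A2 at 4551, HDC at 2630 and GATA2 at 1349 CPM.

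**Figure D3:**
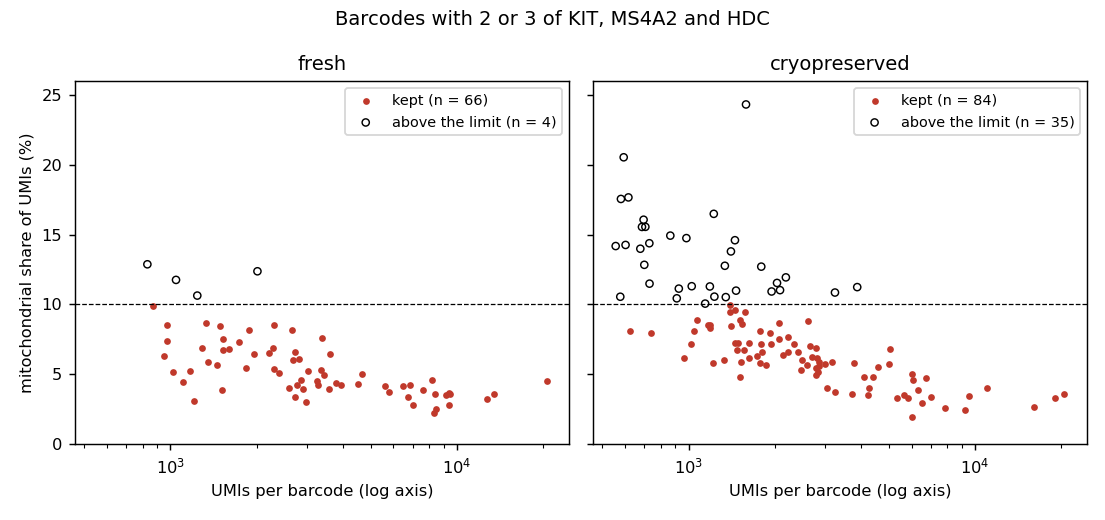
Mitochondrial share of UMIs (%) against UMIs per barcode (log axis) for barcodes with at least 2 UMIs of 2 or 3 of KIT, MS4A2 and HDC, fresh on the left and cryopreserved on the right. Open circles above the dashed line at 10% were removed by the limit, 4 fresh and 35 cryopreserved barcodes, and most of them have few UMIs.

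Few UMIs were captured per mast cell-like cell, and RNA content, capture and leakage cannot be told apart here. The median was 2840 UMIs per fresh cell (interval 2301 to 3438) and 2478 UMIs per cryopreserved cell (1928 to 2825), with a ratio of 0.873 (0.561 to 1.23). Without the mitochondrial limit, which removed a larger part of the cryopreserved barcodes of this kind, the ratio was 0.656. All other filtered cells that were not chosen had medians of 11243 and 8052 UMIs. The cells with KIT alone had medians of 7670 and 5804 UMIs, and those with MS4A2 alone 14890 and 11848. Over all chosen cells the median was 7095 UMIs in fresh and 4908 in cryopreserved cells, with a ratio of 0.692 (0.509 to 0.949). The ratio was 0.757 (0.584 to 0.985) in the cells with KIT alone and 0.796 (0.500 to 1.12) in those with MS4A2 alone. The make-up of the chosen cells differed between the libraries, and its part in the ratio over all of them was not tested. Mast cell-like cells had medians of 1376 fresh and 1172 cryopreserved genes per cell. When cells were thinned to 1000 UMIs, which kept 62 fresh and 81 cryopreserved cells, the medians were 634 and 637 genes. The median mitochondrial share was 4.76% in fresh and 6.03% in cryopreserved mast cell-like cells, with a ratio of 1.27 (1.04 to 1.56), whereas in cells that were not chosen it was 3.46% and 3.44%. Without the mitochondrial limit the ratio in mast cell-like cells was 1.42.

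To compare detection at equal depth, each cell was thinned to 2000 UMIs, which left 45 of 66 fresh and 50 of 84 cryopreserved mast cell-like cells. GATA2 was detected in 66.7% of the fresh (51.0 to 80.0) and 90.0% of the cryopreserved cells (78.2 to 96.7). HPGDS was detected in 46.7% (31.7 to 62.1) and 36.0% (22.9 to 50.8). FCER1A was detected in 93.3% (81.7 to 98.6) and 90.0% (78.2 to 96.7). In fibroblasts thinned alike, which should lack these genes, GATA2 had a UMI in 0 of 1002 fresh cells, which by a floor of 3 counts allows a share of up to 0.299% of cells with a UMI at this depth, and in 0.21% of 1431 cryopreserved cells. FCER1A had a UMI in 0.299% of fresh and 0.21% of cryopreserved fibroblasts, and HPGDS in 0 of 1002 and 0 of 1431, which allow up to 0.299% and 0.21%. These limits are on cells with a UMI and not on cells that express the gene. The fibroblasts were deeper before thinning, with medians of 13861 and 10230 UMIs. Unthinned, GATA2 was detected in 83.3% of fresh and 88.1% of cryopreserved mast cell-like cells, HPGDS in 59.1% and 47.6%, and FCER1A in 97.0% and 88.1%. Unthinned fibroblasts had a UMI of GATA2 in 0.196% and 0.479% of cells, of HPGDS in 0.196% and 0.205%, and of FCER1A in 0.688% and 0.205%. Thinned or not, the shares in mast cell-like cells lay above those in fibroblasts.

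**Figure D4:**
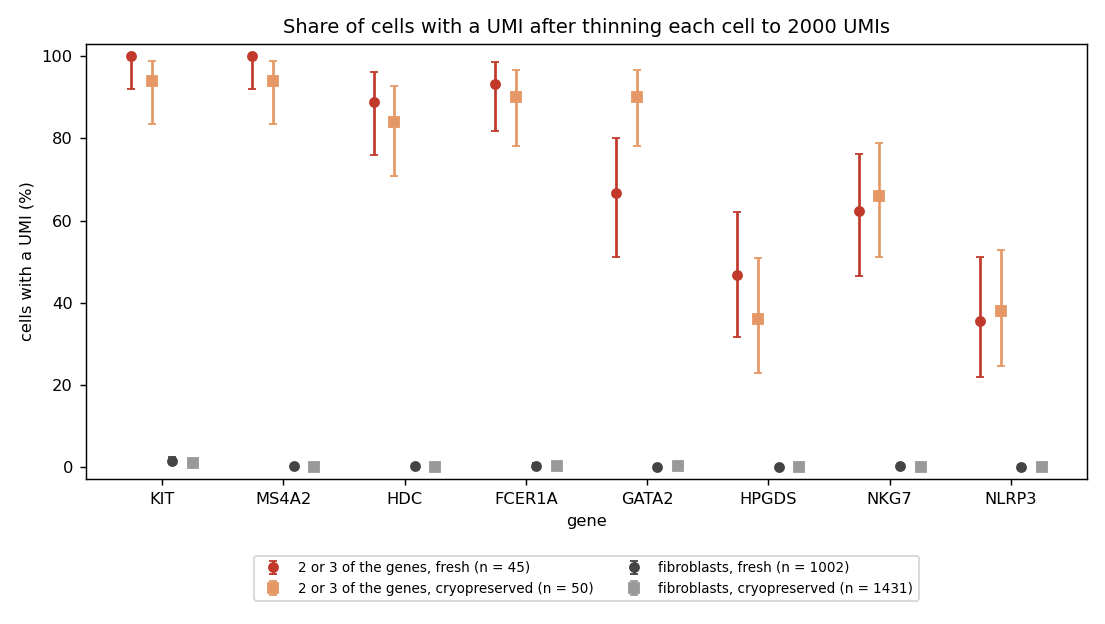
Share of cells with at least 1 UMI of a gene (%) after thinning each cell to 2000 UMIs, in mast cell-like cells (red and orange) and fibroblasts (dark and light grey), circles for fresh and squares for cryopreserved, with exact 95% binomial intervals. GATA2 is at 66.7% in fresh and 90.0% in cryopreserved mast cell-like cells, and every gene shown is near 0 in fibroblasts. For KIT, MS4A2 and HDC this contrast was constrained by the choice of both kinds of cell, and nothing is read from it.

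Some genes of mast cell function stood far above the rest of the skin in mast cell-like cells, and others did not. Of 927 genes with at least 50 UMIs in each library, 99 (10.7%) were at least 8-fold higher than in all other filtered cells of the same library in both libraries. Over all chosen cells, with the other 2 kinds included, 50 of 3421 genes (1.46%) were. These ratios describe cells that were chosen on their expression and test nothing. HDC was nearly absent elsewhere in the skin, at 2381 fresh and 1942 cryopreserved CPM against 0.563 and 0.907 in other cells. KIT stood at 4300 and 3727 against 40.4 and 29.9, and MS4A2 at 4209 and 3635 against 19.8 and 18.9, where the other cells include those with KIT or MS4A2 alone.

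Of the IgE receptor and its signalling chain, 17 of 18 listed genes were found, 8 had at least 50 UMIs in each library, and 6 were at least 8-fold above other cells, with MS4A2, which chose the cells, among them. The share was 10.7% over all 927 genes. The UMI minimum was applied within the mast cell-like cells, which favours genes that are high there, so this count and those for the next lists are descriptions of the measured members. FCER1A, the chain that binds IgE, stood at 1429 fresh and 1293 cryopreserved CPM against 12.3 and 13.1. FCER1G, the gamma chain that many Fc receptors use, stood at 1643 and 1919 against 87.3 and 142. The adaptor LCP2 stood at 498 and 668 against 22.3 and 24.2, and the adaptor LAT2 at 549 and 665 against 42.8 and 54.2. These chains and adaptors had passed the UMI minimum in both libraries, so their presence there follows from that filter. Among the 17 genes found, 3 had no UMI in fresh and 1 had none in cryopreserved mast cell-like cells. The phospholipase PLCG1 had 0 UMIs in mast cell-like cells of either library, and its relative PLCG2 stood at 153 and 157 CPM. In MS4A2-alone cells FCER1A was also present, at 314 and 398 CPM, and it lay at 357 and 291 in Langerhans cells.

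Of the 10 listed enzymes of lipid mediators, 7 had at least 50 UMIs in each library and 6 were at least 8-fold above other cells, against the same 10.7% of all genes. LTC4S, which makes leukotriene C4, stood at 927 fresh and 1022 cryopreserved CPM against 9.41 and 13.9. PTGS1, the constitutive cyclooxygenase, stood at 792 and 999 against 10.3 and 8.77. HPGD, which breaks prostaglandins down, stood at 2752 and 2056 against 12.1 and 10.97. PTGS2, the inducible cyclooxygenase, was the exception, at 3250 and 2790 against 488 and 434, since other skin cells carried it too. ALOX5, the lipoxygenase that starts leukotriene synthesis, stood at 258 and 196 against 3.06 and 2.86.

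Of the granule list, 6 of 15 genes were found, 3 had at least 50 UMIs in each library, and 2 were at least 8-fold above other cells, against 10.7% of all genes. These were SRGN and HDC, of which HDC chose the cells. Of the exocytosis list, 16 of 18 genes were found, 5 had 50 UMIs in each library, and 1 was 8-fold above other cells. SRGN stood at 5809 fresh and 7250 cryopreserved CPM against 359 and 517 in other cells, and at 3886 and 5434 in T cells. SLC18A2, which loads histamine into vesicles, had 35 and 28 UMIs, or 127 and 91.7 CPM against 0.75 and 0.852. RAB27B, a small GTPase of granule secretion, stood at 3810 and 2620 against 18.7 and 17.3, and was the exocytosis gene that passed 8-fold. CD63, a granule membrane protein that other cells also use, stood at 1519 and 1424 against 754 and 775. The tryptases, chymase, CPA3, CTSG and GZMB were not analysed here, as no feature carried these names.

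Of the surface receptors, 20 of 24 genes were found, 4 had at least 50 UMIs in each library and 3 were at least 8-fold above other cells, against 10.7% of all genes. Of the cytokines and chemokines, 17 of 20 were found, 3 had 50 UMIs in each library and 1 was 8-fold above other cells. The genes named next were picked after their values were seen. CSF2RB, the shared chain of the receptors for IL-3, IL-5 and GM-CSF, stood at 3984 fresh and 3311 cryopreserved CPM against 40.3 and 31.4. ENPP3, an ectoenzyme used as a surface marker of mast cells and basophils, stood at 1243 and 789 against 1.78 and 2.61. Of 8 basophil and eosinophil markers only 3 were analysed here, with 1 UMI of CEBPA in the fresh library and no UMI of EPX or CEBPE and with CCR3, IL3RA, CLC, PRG2 and SIGLEC8 left out. NPY, which encodes neuropeptide Y, stood at 840 and 1405 against 0.25 and 0.192, with a UMI in 49 of 66 fresh and 67 of 84 cryopreserved cells. LIF, a cytokine of the IL-6 family, stood at 447 and 648 against 18.6 and 22.8. IL4 had 4 and 8 UMIs in mast cell-like cells, against 1 and 0 UMIs in all other cells together, IL13 had 1 and 0 UMIs, and IL5 had none. CSF2, which encodes GM-CSF, had 25 and 33 UMIs, 25.9% of them in 1 cell. The feature ENSSSCG00000021222, which has no name in the tables used here, stood at 4242 and 4758 against 0.688 and 1.90.

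NKG7, a granule protein known from cytotoxic lymphocytes, and NLRP3, the sensor of an inflammasome, were used in the study as markers of macrophages. In mast cell-like cells NKG7 stood at 582 fresh and 658 cryopreserved CPM. In macrophages chosen by C1QA and C1QB it stood at 166 and 226, and in T cells at 126 and 171. NLRP3 stood at 356 and 344 in mast cell-like cells and at 122 and 124 in macrophages. Both genes were at a higher level in mast cell-like cells than in those macrophages in either library. Of the 10 macrophage markers, 6 had no UMI in fresh and 4 had none in cryopreserved mast cell-like cells, where the rule itself limited C1QA and C1QB. The most abundant was MRC1, at 182 and 141 CPM.

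The fresh and cryopreserved profiles of mast cell-like cells were alike for most genes. Over the 2098 genes whose fresh and cryopreserved UMIs summed to 50 or more, Pearson's r across genes was 0.954 for CPM and 0.857 for log2(CPM + 1), and the median absolute log2 ratio was 0.34. Across genes these are descriptions, since genes are not independent replicates. After TMM scaling, 145 of the 2098 genes (6.91%) differed at least 2-fold, with 65 higher (3.1%) and 80 lower (3.81%) in the cryopreserved library. In 95 of these 145 genes a single cell held more than 10% of the UMIs. Among the 1620 genes with no such cell, 22 were at least 2-fold higher and 28 lower. Without the SLA-DRA-rich cells described below, 77 of 1857 genes (4.15%) differed at least 2-fold, with 23 higher and 54 lower. Over all chosen cells, 519 of 5778 genes (8.98%) differed at least 2-fold, with 178 higher (3.08%) and 341 lower (5.9%), and r was 0.956 for CPM.

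The levels of FCER1A, HPGDS and GATA2 differed less than 2-fold between the libraries in mast cell-like cells. For KIT, MS4A2 and HDC the same UMI threshold chose the cells of both libraries, so their values are given with nothing read from them. KIT differed by a log2 ratio, cryopreserved over fresh, of -0.17 (interval -0.29 to -0.05), MS4A2 by -0.18 (-0.30 to -0.06) and HDC by -0.26 (-0.42 to -0.10). FCER1A, which the rule did not use, differed by -0.11 (-0.32 to 0.09). HPGDS differed by 0.08 (-0.38 to 0.55). GATA2 was higher in the cryopreserved library by 0.85 (0.61 to 1.10), whereas in all other cells its log2 ratio was -0.07. Here and below, ratios in other cells were scaled by total UMIs, without TMM. Without the SLA-DRA-rich cells described below the GATA2 value was 0.92. Over all chosen cells GATA2 differed by 1.23 (1.01 to 1.46), and the 3 kinds of cell made up different shares of the chosen cells in the 2 libraries. Each of these values describes 2 libraries, not the conditions.

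By list, 0 of the 13 measured genes of the IgE receptor chain, 0 of 8 lipid mediator enzymes, 0 of 5 granule genes, 0 of 7 surface receptors and 0 of 8 exocytosis genes differed at least 2-fold in mast cell-like cells, against 6.91% of all genes. MS4A2 in the IgE list, HDC in the granule list and KIT in its own list below chose the cells, so the rule constrained their ratios. The median log2 ratio was -0.18 for the IgE receptor chain, 0.07 for lipid mediators, -0.04 for granule genes, -0.23 for surface receptors and -0.26 for exocytosis, and it was -0.04 over all 2098 genes. Without the SLA-DRA-rich cells described below, the share over all genes was 4.15%. Of 7 measured cytokines and chemokines, 2 were higher and 0 lower, with a median of 0.28. These were CXCL8 and CXCL2, whose UMIs lay mostly in the SLA-DRA-rich cells described below. Of 11 genes in the list of KIT, its signalling and transcription factors, 1 was higher and 0 lower. This was TAL1, a transcription factor of the red cell and mast cell lineages, with 18 fresh and 49 cryopreserved UMIs and a log2 ratio of 1.33 (0.52 to 2.19), against 0.01 in other cells. RUNX1, a haematopoietic transcription factor, stood at -0.96 (-1.17 to -0.76), with 36.2% of its UMIs in 1 cell, and at -0.60 without the SLA-DRA-rich cells.

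The listed genes that respond to handling gave counts near the share over all genes. Of 10 immediate early genes measured, 0 differed at least 2-fold, against 6.91% of all genes, or 4.15% without the SLA-DRA-rich cells, with a median log2 ratio of -0.01. FOS stood at 1767 fresh and 1447 cryopreserved CPM and JUN at 436 and 478. Of 9 genes of the heat shock and cold response, 1 was higher and 0 lower, with a median of 0.03, and HSPA1A, HSPA1B and CIRBP of that list were not analysed here. The gene was HSPE1, a mitochondrial chaperonin, with 21 and 48 UMIs and a log2 ratio of 1.08 (0.31 to 1.89). Without the SLA-DRA-rich cells HSPE1 stood at 0.99, under 2-fold. HSPA8, a constitutive chaperone, stood at 2010 and 1169 CPM. The list did not include HSP70.2, another heat shock gene. Over all chosen cells HSP70.2 had 1742 of 1421238 fresh UMIs and 2547 of 1032466 cryopreserved UMIs, and its level in mast cell-like cells is not given here.

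The lowest cryopreserved level, relative to fresh, belonged to ND3, a mitochondrial subunit of complex I, among genes with no cell above 10% of the UMIs. ND3 stood at 1021 CPM in fresh and 170 in cryopreserved mast cell-like cells, with a log2 ratio of -2.55 (-3.01 to -2.12). In all other cells the ratio was -2.37, so this difference was shared by the whole library. It was the only one of 11 measured mitochondrial genes to differ at least 2-fold, and CYTB stood at 5827 and 5649 CPM. ARPC1B, a subunit of the actin-branching complex, was at the other end, at 196 and 619 CPM with a log2 ratio of 1.69 (1.25 to 2.15), against 1.43 in other cells. CALR, a chaperone of the endoplasmic reticulum, stood at 204 and 455 CPM, with 1.19 (0.74 to 1.67) against 0.85 in other cells. ND3 and ARPC1B, the lowest and the highest of these ratios, thus had the same direction in the other cells.

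For other genes the ratio lay farther from 0 in mast cell-like cells than in the other cells. ERG, a transcription factor of the ETS family, stood at 916 fresh and 386 cryopreserved CPM, with a log2 ratio of -1.21 (-1.54 to -0.89) against -0.65 in other cells. SLC24A3, an exchanger of sodium, calcium and potassium, stood at 2970 and 1483 CPM, with a ratio of -0.97 (-1.14 to -0.80) against -0.07. NPY stood at 0.78 (0.54 to 1.01) against -0.38 in other cells, where its level was near 0, and 11.7% of its UMIs lay in 1 cell. P2RX1, a channel opened by ATP, stood at 316 and 511 CPM, with 0.72 (0.34 to 1.12) against 0.14. The difference between mast cell-like and other cells in these ratios was not tested. The remaining genes with the lowest ratios were ATF7IP, SMARCC1, MBNL2, TET3, UBE2E1, LRRFIP1, ARIH2 and SYNE3, between -1.63 and -1.20, and each had no more than 66 fresh UMIs. The remaining genes with the highest ratios were PTTG1IP, PSME2, ENSSSCG00000041449, TPPP3, SENP6, ENSSSCG00000007524 and TRMT112, between 1.15 and 1.53.

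**Figure D5:**
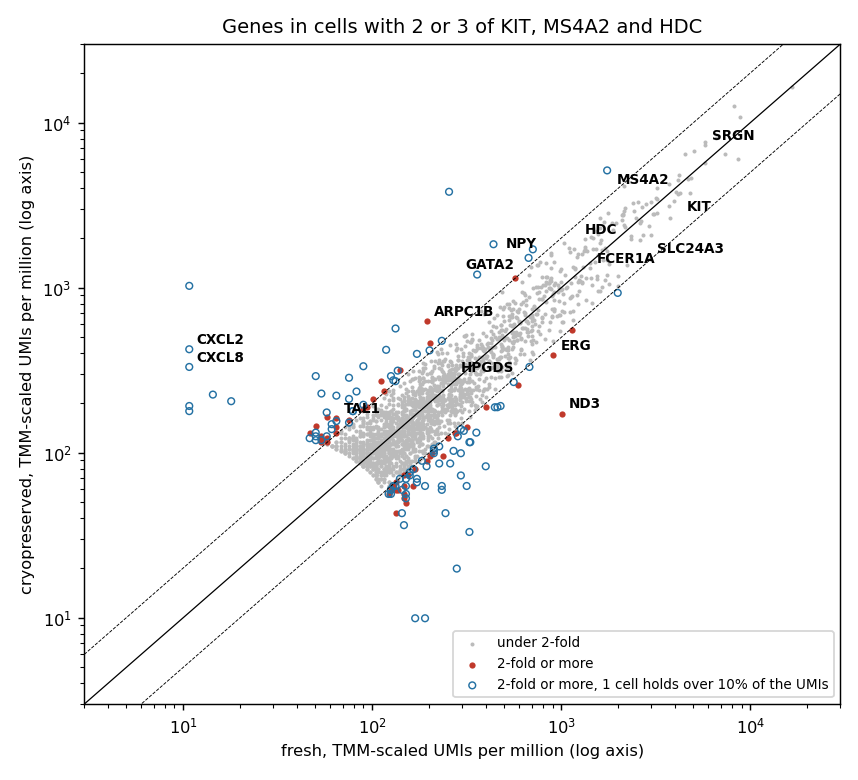
Level of 2098 genes in mast cell-like cells, fresh on the horizontal and cryopreserved on the vertical axis, in TMM-scaled CPM on log axes, with genes below 3 UMIs drawn at that floor. Dashed lines mark 2-fold, filled red points differ at least 2-fold, and open blue circles differ at least 2-fold with more than 10% of their UMIs in 1 cell. FCER1A lies near the diagonal, and ND3 and ARPC1B lie outside the 2-fold lines. KIT, MS4A2 and HDC also lie near the diagonal, but they chose the cells of both libraries, which constrained their ratios.

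A few mast cell-like cells held most of the MHC class II transcripts. SLA-DRA took at least 0.2% of the UMIs in 1 of 66 fresh and 3 of 84 cryopreserved cells, while 62 and 77 cells had no SLA-DRA UMI. With these 4 cells left out, SLA-DRA dropped from 187 to 3 UMIs in fresh and from 458 to 4 UMIs in cryopreserved cells. CXCL8, a chemokine that draws neutrophils, had 0 fresh and 100 cryopreserved UMIs, of which 91.0% lay in 1 cell, and 0 and 0 UMIs once the 4 cells were left out. CXCL2, a related chemokine, had 2 and 128 UMIs, and 2 and 18 without those cells. With the 4 cells left out, 77 of 1857 genes (4.15%) differed at least 2-fold, 23 of them higher (1.24%) and 54 lower (2.91%). The labels name fluorescence-activated sorting before library preparation, with magnetic removal of dead cells as an alternative, and the study's sort used scatter gates meant to remove doublets. Whether these barcodes held more than 1 cell was not tested.

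Variation was next compared from cell to cell, with the SLA-DRA-rich cells included. Of 437 genes with at least 100 UMIs in each library, 24 had a squared coefficient of variation above 1 in both libraries after counting error was taken off, with a median of 0.282 over the 437 genes. SLA-DRA led, at 31.8 in fresh and 14.1 in cryopreserved cells, followed by SLA-DQB1, SLA-DRB1, ENSSSCG00000001456 and CD74. PDE7B, a phosphodiesterase, had 8.20 and 6.43, TIMP1, an inhibitor of matrix proteases, 4.55 and 3.71, and FOS 3.47 and 2.83. With the 4 SLA-DRA-rich cells left out and the minimum of 100 UMIs applied again, 14 genes were above 1. SLA-DRA, SLA-DRB1 and SLA-DQB1 fell below that minimum and left the comparison. Over all chosen cells 690 of 1914 genes were above 1, led by FABP4, a fatty acid carrier, and CCR7. Across mast cell-like cells of 1 library, Spearman's rho between MS4A2 and FCER1A was 0.42 in both libraries (66 and 84 cells). Between HDC and GATA2 it was -0.12 in fresh and 0.09 in cryopreserved cells. It was -0.08 and -0.08 between KIT and MS4A2, 0.18 and 0.29 between KIT and HDC, and -0.08 and -0.01 between MS4A2 and HDC, pairs whose relation the choice of cells constrains. All of these values share the depth of each cell and are descriptions.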

How the data were processed

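Single-cell UMI counts of pig skin, 1 fresh and 1 cryopreserved library, were used as deposited by the authors; per the submitters' processing notes they were made with Cell Ranger 4.0.0, STAR 2.5.1b and the Sscrofa11.1 assembly. The limits of 4500 genes, 30000 UMIs and 10% mitochondrial UMIs were applied to the deposited counts. Per the labels, dead cells were removed on a cell sorter before library preparation, with magnetic removal as an alternative, and per the study's methods the sort gated out doublets by scatter. No doublet caller was run, and doublets were further limited by the upper limits and by the CD3E, C1Q, collagen and KRT5 criteria. Of 31908 features, 16719 had a name in the files, 772 were named from the supplied table of gene names, and the others kept their ID. The members and gene lists were chosen with earlier results of these data known.

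UMIs were summed per library and kind of cell, and given as CPM. Cryopreserved and fresh sums of chosen cells were compared after TMM scaling (edgeR 4.0.16, R 4.3.3), among genes whose UMIs over both libraries summed to at least 50. The ratios in other cells set beside them were scaled by total UMIs alone. Genes below 3 UMIs were set to 3 in ratios. Intervals are 95%, exact binomial for shares, conditional binomial for ratios of counts, from order statistics for medians, and for differences of shares by the normal approximation. The range of a ratio of medians divides the lower limit of 1 library by the upper limit of the other, and the reverse. It is not a 95% interval of the ratio. Comparison cells had fewer than 5 UMIs of the 3 rule genes, fell within the same limits and met the criteria of the other lineages. Macrophages had at least 10 UMIs of C1QA and C1QB, T cells at least 3 of CD3D and CD3E, Langerhans cells at least 3 of CD207, and fibroblasts at least 1% collagen UMIs. Named genes were the listed markers, the 20 genes highest over other cells, the 10 highest and 10 lowest ratios with no cell above 10% of the UMIs, and the 10 most variable genes. Of the longer lists, the members named in the text were picked after their values were seen. Python 3.11.15, numpy 2.4.6, scipy 1.17.1 and pandas 2.3.3 were used, and the scripts were tested on simulated counts. Alternatives covered the threshold, the limits, DESeq2 1.42.0 size factors, other scalings and UMI minimums, the mean over cells, thinning, and the division by rule genes, which was added after seeing the data.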

Additional observations from a re-analysis of the deposited data

Results flagged for a closer look

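Barcodes with at least 2 of KIT, MS4A2 and HDC that met every other criterion but exceeded the mitochondrial limit lay outside the comparisons above, and there were 4 fresh and 35 cryopreserved barcodes of this kind. The 4 fresh barcodes had a median of 1144 UMIs and 12.1% mitochondrial UMIs, and all 4 held a UMI of GATA2, HPGDS or GATA1. KIT stood at 3899 CPM in them and HDC at 1754. The part of the low UMI number of these barcodes in the count above the limit was not tested.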

How the results depend on the processing

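No paired analysis was possible because each condition had 1 library. Values below are over all chosen cells unless stated, fresh before cryopreserved. The share of chosen cells was 7.96% and 5.54% at a threshold of 3 UMIs, 3.71% and 2.30% at 10 UMIs, 4.71% of fresh cells without the mitochondrial limit, 4.34% without any limit, and 7.32% without the criteria on other lineages. The difference in share was -0.23 percentage points without the mitochondrial limit and turned to 0.00267 without any limit. With at least 2 of the 3 genes (2.38% and 1.99%) it was -0.39, and without the mitochondrial limit (1.85% and 2.55%) it turned to 0.70. With at least 1 UMI of 2 genes (2.56% and 2.01%) it was -0.55. The ratio of median UMIs was 0.480 at a threshold of 10 UMIs.

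Genes at least 2-fold higher and lower numbered 488 and 602 at a minimum of 20 UMIs, 31 and 121 at 200 UMIs, 1016 and 866 without a minimum, 65 and 80 with at least 2 of the 3 genes, and 23 and 54 when the SLA-DRA-rich cells were also left out, while 586 were lower at a threshold of 10 UMIs. Pearson's r was 0.953 for CPM both at a minimum of 200 UMIs and without mitochondrial genes, and for log2(CPM + 1) it was 0.901 at 200 UMIs and 0.857 with at least 2 genes. The median absolute log2 ratio was 0.37 and 0.34 in these last 2 settings. With at least 2 genes, 99 genes stood 8-fold above other cells, and 24 genes, or 14 without the SLA-DRA-rich cells, had a squared coefficient of variation above 1.

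HPGDS was detected in 9.09% of fresh cells thinned to 1000 UMIs, in 24.6% and 23.5% of cells without thinning, and in 46.7% and 36.0% with at least 2 genes. For GATA2 the shares were 49.1% and 55.9% without thinning and 66.7% and 90.0% with at least 2 genes. Of the values under the first set of alternatives, 49 moved by less than counting error or 1.5 times, 27 moved more and 1 reversed, and of those under alternatives added after seeing the data, 7, 21 and 1 did. With 1 library per condition, neither variation between animals nor between preparations was measured, and at the depth of mast cell-like cells genes under 50 UMIs were not compared.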
